A study of Mus musculus with 2 samples.

Results

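The glycolysis and hypoxia response genes described here are 36 genes, out of 21935 gene symbols measured, that encode glucose and lactate transporters, the enzymes of glycolysis and of the fate of pyruvate, the oxygen sensor of the cell and known targets of the low oxygen response. They were listed by symbol for these known roles, with earlier results of these data known, and all 36 were found. Their RNA was measured in mouse embryonic stem cells of the R1 line after 72 h without LIF, a cytokine added to culture medium to keep such cells undifferentiated. The shKdm5b cells carried a lentiviral short hairpin RNA against *Kdm5b*, which encodes a demethylase of the active promoter mark H3K4me3, and the shLuc control cells carried a hairpin against luciferase, which mouse cells lack. The question was which genes differ when ES cells depleted of KDM5B leave self-renewal. Both lines had been infected, selected with puromycin and kept on irradiated mouse embryonic fibroblasts with LIF before LIF was withdrawn. The labels name low attachment dishes for this step and the study's methods also name gelatin coated ones, and which was used for these libraries is not given. The time point is given for the series as a whole, and the clone, passage and hairpin number of each library are not given in the sources used here. Each condition had 1 RNA-Seq library of polyadenylated RNA, so no value below has a replicate error and no test between the conditions was possible. In bulk RNA, fewer cells of a type and less RNA per cell cannot be told apart.

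Glycolysis splits glucose into pyruvate in the cytosol and yields ATP without oxygen. Lactate dehydrogenase then turns pyruvate into lactate, which leaves the cell through monocarboxylate transporters, or pyruvate enters the mitochondria and is oxidised. When oxygen is low, prolyl hydroxylases no longer mark the transcription factor subunit HIF1A for degradation, and HIF binds short elements near many glycolytic genes and near genes for blood vessel growth, mitophagy and collagen modification. Pluripotent stem cells are known for high glycolytic flux also when oxygen is present, and their metabolism changes as they differentiate.

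The libraries held 78172698 aligned reads (shLuc) and 72702698 (shKdm5b), the totals by which the deposited RPKM values (reads normalized to transcript length and library size) were scaled. Their reads began at 25736755 and 14639660 distinct positions, 32.9% and 20.1% of the reads. Reads that share a position can be copies of 1 molecule or separate molecules, which these counts cannot tell apart. Every interval below, at 95%, treats reads as independent and covers only the error of counting. *Kdm5b*, against which the hairpin is directed, was at 104 RPKM (51378 reads) in shLuc and at 3.01 RPKM (1377 reads), or 2.88% of that, in shKdm5b. All 10 ES cell markers were above 1 RPKM in at least 1 library, with 6 of 10 lower in shKdm5b. *Pou5f1* (log2 ratio -1.76) and *Esrrb* (-0.96) were called lower and *Dppa5a* (0.59) higher. The summed levels were 3098 and 3169 RPKM, with *Dppa5a* at 1096 and 1651 RPKM and *Pou5f1* at 619 and 182 RPKM. The near equal sums thus hold opposite changes and do not show equal marker levels. The endoderm markers summed to 26.7 RPKM in shLuc and 4.48 in shKdm5b, with 8 of 8 lower and *Afp* at 0 reads in shKdm5b. Mesoderm and neural markers summed to 10.9 and 19.5 RPKM. The fibroblast markers, which feeder cells would bring, summed to 6.18 and 6.82 RPKM with 1 of 12 above 1 RPKM (*Thy1*). Of the 12, 7 were higher and 5 lower in shKdm5b. *Postn* (3 reads in shLuc) and *S100a4* (6 reads in shLuc) were at 0 reads in shKdm5b. The blood cell markers summed to 1.57 and 1.66 RPKM, with *Hbb-b1* and *Emr1* at 0 reads in both libraries. The part of these cell type differences in the values below was not tested.

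Glycolysis genes were highly expressed in both libraries, and as deposited the 36 genes were split in direction, with 17 higher and 19 lower in shKdm5b. Among all 21935 gene symbols, 6836 were higher and 11319 lower in shKdm5b, so the typical gene leaned lower. 12 of the 36 genes were above 100 RPKM in both libraries, led by *Pkm2* (1073 RPKM in shLuc) and *Aldoa* (916 RPKM in shKdm5b). Together the 36 genes took 1018989 reads, or 1.30% of the shLuc library, and 888947 reads, or 1.22% of the shKdm5b library. *Pkm2* alone took 183832 of these reads in shLuc and 98164 in shKdm5b, and the lower share in shKdm5b depends on this gene. Without *Pkm2*, the share of the other genes was slightly higher in shKdm5b. A log2 ratio is the log2 of (shKdm5b RPKM + 0.1) over (shLuc RPKM + 0.1), which understates differences of low genes. A gene was called when the ratio passed 1.5-fold with an RPKM above 1 in at least 1 library, a rule of size and not a test. 34 genes passed the minimum, all but *Pfkfb4* and *Car9*.

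Of these 34, 8 were called higher in shKdm5b (*Pfkfb3*, *Aldoc*, *Pgk1*, *Ldhb*, *Vegfa*, *Bnip3*, *P4ha1* and *Ero1l*), 6 were called lower (*Hk2*, *Pfkl*, *Pfkm*, *Pkm2*, *Pdk1* and *Slc16a3*) and 20 were within 1.5-fold. Over all 11804 genes past the minimum, 48.3% were called, against 41.2% of these genes. Calls higher made up 16.3% of all genes and 23.5% of these, and calls lower 32.0% and 17.6%. The median log2 ratio was 0.00052 over the 34 genes and -0.21 over all genes. TMM scaling, which sets the typical gene to equal levels, takes a shift of -0.22 out of every log2 ratio, and then 12 of these genes were called higher and 4 lower (24.1% and 23.1% of all genes). Under it *Gpi1*, *Gapdh*, *Hif1a* and *Ndrg1* joined the genes called higher, *Pkm2* and *Pdk1* were no longer called lower, and 9 genes with ratios near 0 changed sign. The reads behind them were a median of 14221.5 and 13233 a gene, and at least 1275 for each called gene. At this depth the counting intervals of 30 of the 36 ratios lay wholly on one side of 0. The share over all genes was not computed, and these intervals hold only for the deposited scaling. *Tpi1*, *Egln3*, *Ddit4* and *Hk1*, whose intervals lay below 0, were among the genes that changed sign with TMM scaling.

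**Figure D1:**
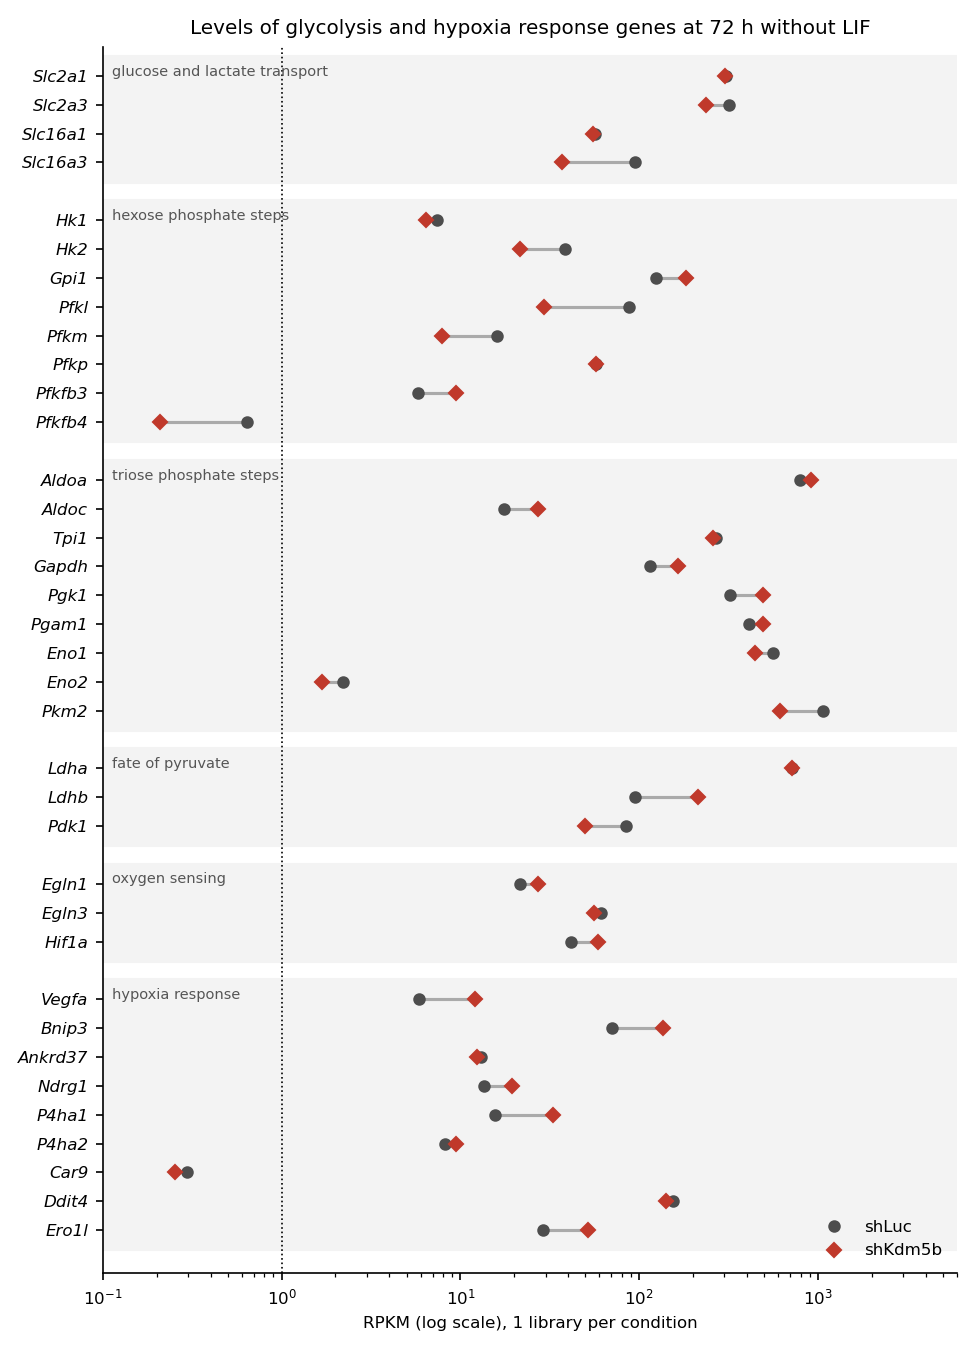
RPKM (horizontal, log scale) of the 36 genes, grouped by role, in the shLuc library (circles) and the shKdm5b library (diamonds), with 1 library per condition and the dotted line at the minimum of 1 RPKM. *Pfkfb4* and *Car9* lie left of the line in both libraries, while the gaps are widest to the left for *Pfkl* and *Slc16a3* and to the right for *Ldhb*, *P4ha1* and *Vegfa* among the called genes.

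The log2 ratio of a gene moved with the GC content of its transcript. Over 11535 genes above the minimum, Spearman's rho between them was -0.53, a description over genes that share the same pair of libraries. The 7 genes called higher with a known GC content (not *Vegfa*) had 41.6% to 53.9% GC with a median of 49.7%, and the 6 called lower had 46.4% to 58.9% with a median of 55.5%. A GC-corrected ratio, in which a smooth curve of ratio against GC content is taken out, is therefore given beside the ratio as deposited, and whether GC content reflects library preparation or the cells was not tested. After this correction 13 of 33 genes were called higher and 2 lower (*Pfkl* and *Pdk1*), where 19.0% of all 11472 genes past the minimum were higher and 17.8% lower. Of the 13 called genes with a GC value, 7 stayed past 1.5-fold, and the sign of the ratio was kept for 25 of 35 genes. The median over the genes became 0.45.

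**Figure D2:**
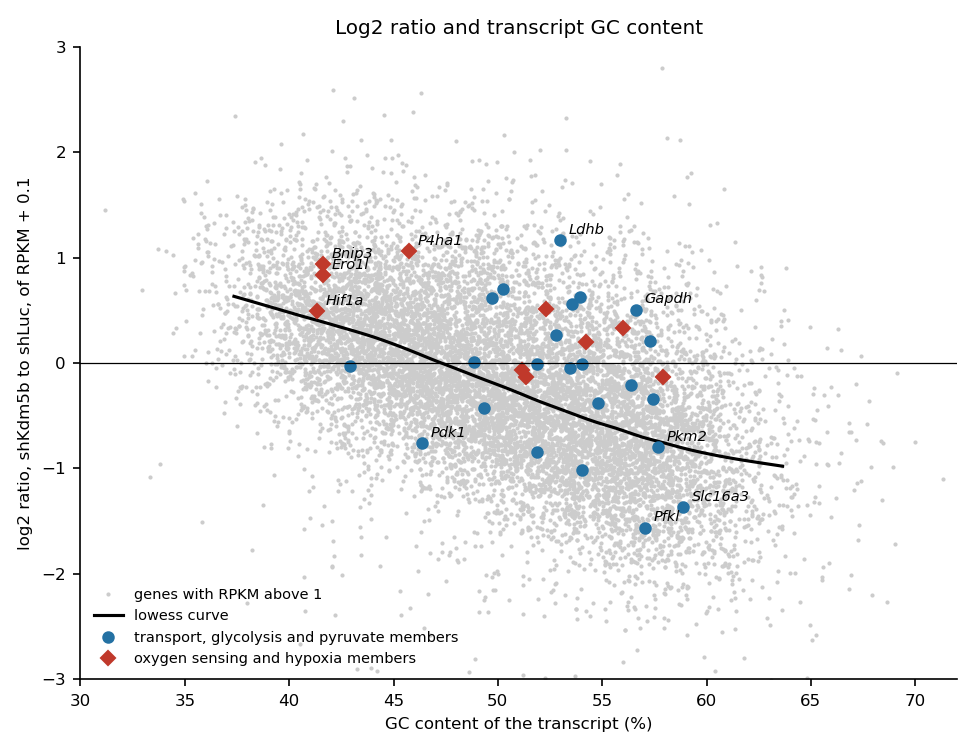
Log2 ratio of shKdm5b to shLuc (vertical) against transcript GC content in percent (horizontal) for genes with RPKM above 1 (grey), with the lowess curve used for the correction (black line), transport, glycolysis and pyruvate genes (circles) and oxygen sensing and hypoxia genes (diamonds), without genes beyond the limits of the axes. The curve falls from left to right (Spearman's rho -0.53 over 11535 genes), and *Pkm2* lies on it while *Ldhb* and *Gapdh* lie above it and *Pfkl* and *Pdk1* below it.

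**Figure D3:**
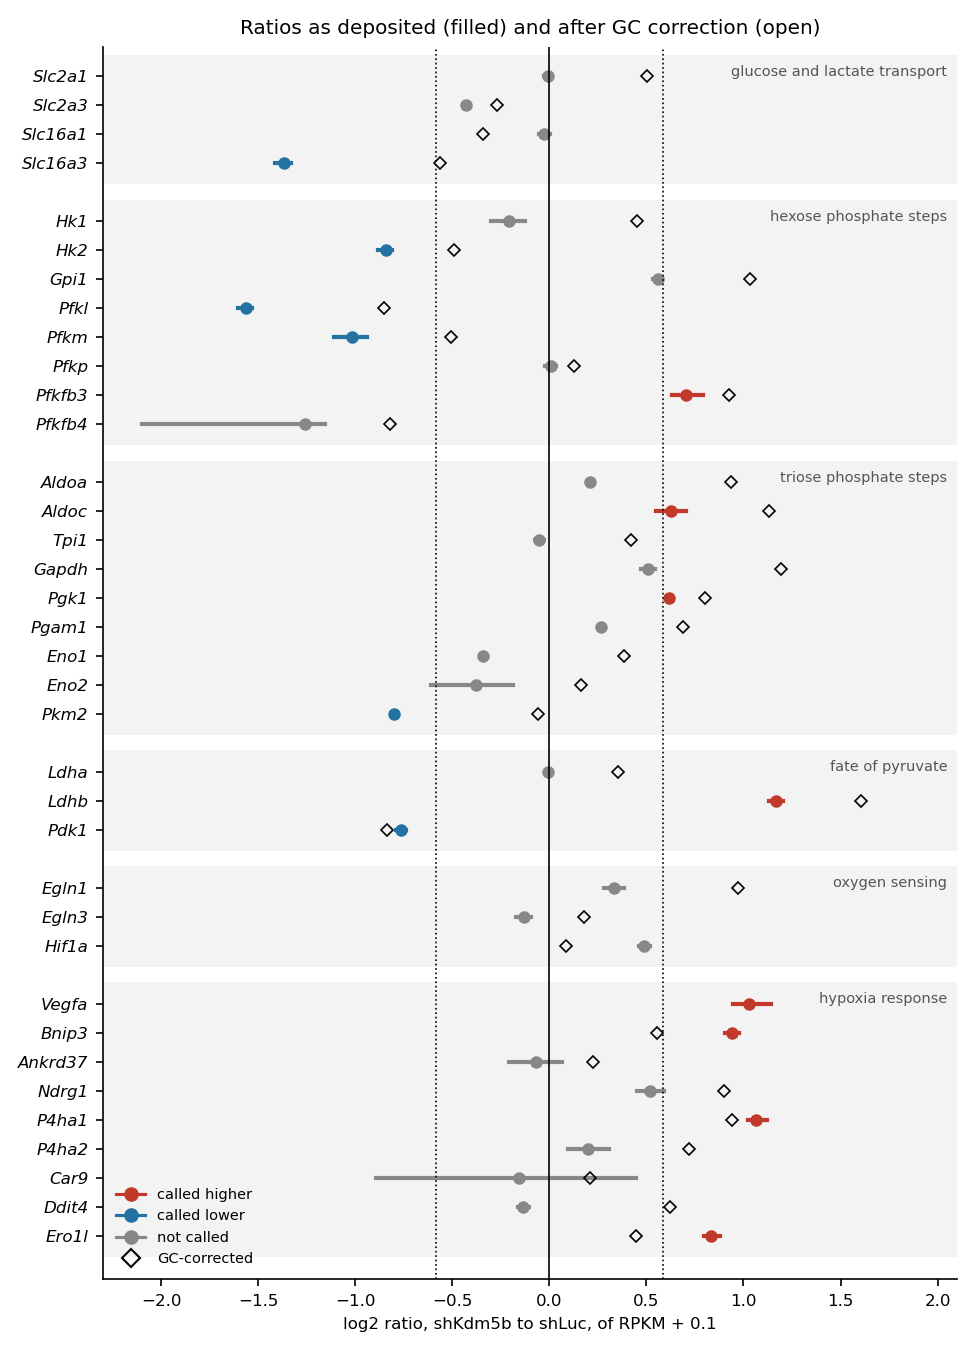
Log2 ratio of shKdm5b to shLuc (horizontal) of the 36 genes by role, as deposited (filled, with 95% counting intervals) and after GC correction (open diamonds), with dotted lines at 1.5-fold in either direction. 8 filled circles are called higher and 6 lower, and most open diamonds of the triose phosphate steps lie right of 0.

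HIF binds an element whose core reads ACGTG or GCGTG, and the promoters of the called genes with the largest ratios are printed to show where these letters stand. The 250 bases before the start site were read from RefSeq promoters on GRCm38.p6, which covered 34 of the 36 genes (not *Slc2a3* or *Ndrg1*), and where a gene has several starts the most upstream was used. Capitals mark the cores on either strand (CACGT and CACGC are the cores read on the other strand), and CACGTG holds a core on each strand and counts as 2. Positions count back from the base before the start, which is -1. The *Pfkl* sequence is chr10:78009808-78010057, minus strand, with 1 core at -99. The *Slc16a3* sequence is chr11:120948817-120949066, plus strand, with cores at -27 and -14. The *Pfkm* sequence is chr15:98092339-98092588, plus strand, with a CACGTG starting at -136. These are the genes with the lowest ratios among the called.
Pfkl: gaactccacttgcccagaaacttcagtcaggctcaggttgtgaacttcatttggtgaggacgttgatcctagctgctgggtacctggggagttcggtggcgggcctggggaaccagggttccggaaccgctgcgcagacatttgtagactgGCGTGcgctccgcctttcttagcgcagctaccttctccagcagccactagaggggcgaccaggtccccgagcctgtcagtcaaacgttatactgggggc
Slc16a3: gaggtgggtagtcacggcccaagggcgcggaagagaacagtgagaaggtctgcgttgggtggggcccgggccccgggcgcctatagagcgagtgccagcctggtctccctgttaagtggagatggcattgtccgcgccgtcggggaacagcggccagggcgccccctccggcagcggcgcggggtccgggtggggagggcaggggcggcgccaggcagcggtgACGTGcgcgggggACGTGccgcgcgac
Pfkm: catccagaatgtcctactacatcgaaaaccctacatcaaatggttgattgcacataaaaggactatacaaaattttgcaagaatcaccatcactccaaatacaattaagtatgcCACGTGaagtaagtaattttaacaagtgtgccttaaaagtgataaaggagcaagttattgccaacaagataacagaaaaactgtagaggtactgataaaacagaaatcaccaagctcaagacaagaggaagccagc

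The genes with the highest ratios were *Ldhb*, *P4ha1* and *Vegfa*. The *Ldhb* sequence is chr6:142507958-142508207, minus strand, with 1 core at -126. The *P4ha1* sequence is chr10:59323046-59323295, plus strand, with cores at -163, -126 and -16. The *Vegfa* sequence is chr17:46032378-46032627, minus strand, and held no core. The window before its other listed start, chr17:46025164-46025413, held 2. That window lies downstream of the first start, and whether it acts as a promoter was not tested.
Ldhb: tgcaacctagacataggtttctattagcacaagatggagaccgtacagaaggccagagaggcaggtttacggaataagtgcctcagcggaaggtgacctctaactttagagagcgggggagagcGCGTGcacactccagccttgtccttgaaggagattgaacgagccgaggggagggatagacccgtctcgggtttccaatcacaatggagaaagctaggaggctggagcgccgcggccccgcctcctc
P4ha1: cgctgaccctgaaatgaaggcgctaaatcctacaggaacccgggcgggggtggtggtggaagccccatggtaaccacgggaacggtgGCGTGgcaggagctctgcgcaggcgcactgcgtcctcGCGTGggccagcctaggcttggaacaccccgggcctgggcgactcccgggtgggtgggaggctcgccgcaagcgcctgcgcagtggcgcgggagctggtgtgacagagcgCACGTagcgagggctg
Vegfa: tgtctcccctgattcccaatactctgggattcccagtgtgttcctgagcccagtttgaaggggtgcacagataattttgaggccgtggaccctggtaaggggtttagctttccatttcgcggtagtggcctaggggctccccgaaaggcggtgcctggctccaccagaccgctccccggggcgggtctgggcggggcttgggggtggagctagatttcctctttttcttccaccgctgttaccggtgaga

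The windows with the most cores, 5 each, belonged to *Ldha* and *Bnip3*, which are shown for that and were chosen after their values were seen. The *Ldha* sequence is chr7:46845554-46845803, plus strand, with all 5 cores of the form ACGTG. The *Bnip3* sequence is chr7:138909507-138909756, minus strand, with 2 cores of the form ACGTG and 3 of the form GCGTG.
Ldha: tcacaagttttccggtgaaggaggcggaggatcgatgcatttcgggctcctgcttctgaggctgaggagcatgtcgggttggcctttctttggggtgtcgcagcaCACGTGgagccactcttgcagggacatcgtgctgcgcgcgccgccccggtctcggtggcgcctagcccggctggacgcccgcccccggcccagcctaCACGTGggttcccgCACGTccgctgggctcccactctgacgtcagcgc
Bnip3: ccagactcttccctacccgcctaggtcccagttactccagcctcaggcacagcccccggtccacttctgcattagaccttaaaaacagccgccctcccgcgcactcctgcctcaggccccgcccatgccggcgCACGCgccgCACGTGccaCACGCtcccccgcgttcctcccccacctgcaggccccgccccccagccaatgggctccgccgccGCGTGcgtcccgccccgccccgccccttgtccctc

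A core stood in 27 of the 34 most upstream windows (79.4%), and in 39 of all 48 windows of these genes (81.2%), against 38.6% of all 32851 promoters of the same length. The form ACGTG alone stood in 52.1% of the 48 windows and in 16.6% of all promoters. Several of these genes entered the set as known HIF targets, so these shares describe the chosen genes and not a response in these cells. The part of promoter GC content in these shares was not tested, and a match to the letters is not a binding site. The core stood in the most upstream window of 7 of 8 genes called higher, 5 of 6 called lower and 15 of 20 others. Of the genes with 5 cores, *Ldha* was at 99.7% of its shLuc level and *Bnip3* at 192%.

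**Figure D4:**
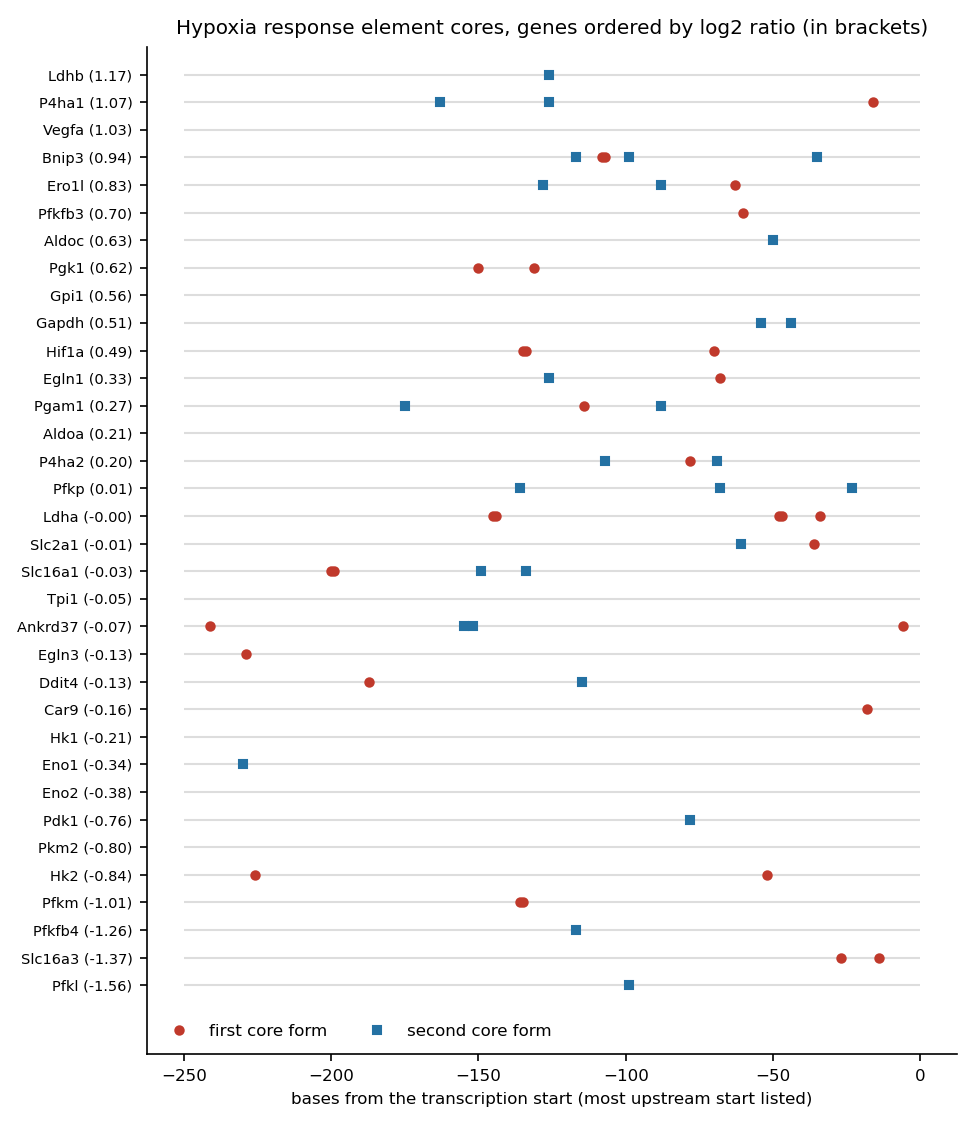
Positions of the first base of each HIF core in the 250 bases before the most upstream start (horizontal, in bases from the start), for 34 genes ordered from the highest log2 ratio (top, ratio in brackets) to the lowest, with ACGTG as circles and GCGTG as squares on either strand. Cores stand in 27 of 34 rows, at the top, the middle and the bottom of the order.

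Of the genes that carry glucose in and lactate out, only the lactate exporter differed by more than 1.5-fold. *Slc16a3* (MCT4, a lactate exporter of highly glycolytic cells) was at 95.2 RPKM (17759 reads) in shLuc and 36.8 RPKM (6390 reads) in shKdm5b, a log2 ratio of -1.37 (-1.41 to -1.33). The GC-corrected ratio was -0.56, just inside 1.5-fold. All 3 RefSeq entries of the gene had ratios between -1.39 and -1.37. Their read counts were nearly equal (17759 to 18143 in shLuc), so they are not separate measurements. *Slc16a1* (MCT1, which moves lactate and pyruvate in either direction) was at 56.5 and 55.5 RPKM. *Slc2a1* (GLUT1, a widely expressed glucose transporter) was nearly equal at 305 and 304 RPKM, on 61392 and 56755 reads. *Slc2a3* (GLUT3, a high affinity glucose transporter) was at 320 RPKM (99071 reads) and 238 RPKM (68403 reads), a log2 ratio of -0.43, inside the 1.5-fold limit. The transporters of glucose thus lay within 1.5-fold of equal levels, and their sum of 626 and 541 RPKM had a log2 ratio of -0.21, which is close to the shift taken out by TMM scaling. *Slc2a1* made up 48.8% of this sum in shLuc and 56.1% in shKdm5b.

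The steps from glucose to fructose bisphosphate held the lowest ratio among the called genes, at the committed step of glycolysis. *Pfkl*, the liver type subunit of phosphofructokinase, was at 87.4 RPKM (25410 reads) in shLuc and 29.5 RPKM (7981 reads) in shKdm5b, 33.8% of the control level. Its log2 ratio was -1.56 (-1.60 to -1.53), and it stayed past 1.5-fold at -0.85 after GC correction. *Pfkm*, the muscle type subunit, was at 16.0 RPKM (3533 reads) and 7.89 RPKM (1616 reads), a log2 ratio of -1.01 (-1.11 to -0.94), or -0.51 after GC correction. *Pfkp*, the platelet type subunit, was equal at 57.4 and 57.7 RPKM on 17894 and 16710 reads. The summed level of the 3 subunits was 161 RPKM in shLuc and 95.1 in shKdm5b, and the subunit with the highest RPKM was *Pfkl* in the control and *Pfkp* in the depleted cells. *Pfkp* made up 35.7% of the sum in shLuc and 60.6% in shKdm5b.

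*Hk2*, the hexokinase that traps glucose in many fast growing cells, was at 38.6 RPKM (16647 reads) and 21.5 RPKM (8612 reads), a log2 ratio of -0.84 (-0.88 to -0.81) that was -0.49 after GC correction. *Hk1*, the hexokinase of most adult tissues, was low at 7.40 and 6.39 RPKM, with a ratio of -0.21 that was 0.45 after GC correction. *Gpi1*, which turns glucose phosphate into fructose phosphate, went the other way at 125 and 184 RPKM. Its log2 ratio of 0.56 (0.54 to 0.58) was the nearest below the limit of 1.5-fold (0.58), and it was 1.04 after GC correction. The bifunctional PFKFB enzymes set the level of the activator of phosphofructokinase. *Pfkfb3*, whose enzyme mainly makes this activator, was called higher at 5.77 RPKM (2097 reads) and 9.44 RPKM (3194 reads), a log2 ratio of 0.70 (0.63 to 0.79). All 8 of its RefSeq entries had ratios between 0.64 and 0.70, on nearly equal read counts (2097 to 2218 in shLuc). These entries are not separate measurements. *Pfkfb4* was under the minimum, with 168 reads (0.639 RPKM) in shLuc and 51 reads (0.209 RPKM) in shKdm5b. Over the 7 genes of these steps above the minimum, 1 was called higher and 3 lower, with a median log2 ratio of -0.21. Of all genes 16.3% were called higher and 32.0% lower, and their median was also -0.21.

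The triose phosphate steps, which yield the ATP of glycolysis, held the most abundant transcripts of the set. Of these 9 genes, 6 lay within 1.5-fold, as did 6102 of all 11804 genes past the minimum. *Pgk1*, which makes the first ATP of the pathway, was called higher at 322 RPKM (45375 reads) in shLuc and 494 RPKM (64673 reads) in shKdm5b, a log2 ratio of 0.62 (0.60 to 0.63). *Aldoc*, the brain type aldolase, was called higher at 17.5 RPKM (2333 reads) and 27.1 RPKM (3354 reads), with a log2 ratio of 0.63 whose interval (0.55 to 0.71) reached below the limit. *Pkm2*, the symbol the files use for pyruvate kinase of the *Pkm* gene, was called lower at 1073 RPKM (183832 reads) and 616 RPKM (98164 reads), a log2 ratio of -0.80 (-0.81 to -0.79). Its transcript has 57.7% GC, and its GC-corrected ratio was -0.06. *Pkm2* was the most abundant gene of the set in shLuc and the third in shKdm5b, after *Aldoa* and *Ldha*.

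None of the other genes of these steps was called as deposited. *Gapdh*, the dehydrogenase often used as a reference gene, was at 116 RPKM (11128 reads) and 164 RPKM (14718 reads), a log2 ratio of 0.51 (0.47 to 0.54) that was 0.73 with TMM scaling and 1.19 after GC correction. *Pgam1*, which moves the phosphate of phosphoglycerate, was at 409 and 493 RPKM, with ratios of 0.27 and 0.69. *Aldoa*, the main aldolase here, was at 793 and 916 RPKM, with ratios of 0.21 and 0.93. *Tpi1*, which interconverts the triose phosphates, was nearly equal at 270.0 and 261 RPKM, a ratio of -0.05 that was 0.42 after GC correction. *Eno1*, the widely expressed enolase, was at 562 and 443 RPKM, with a ratio of -0.34 that was 0.39 after correction. *Eno2*, the neuronal enolase, was at 2.22 and 1.68 RPKM on 456 and 322 reads. *Eno1* and *Aldoa* are uncertain, because the files also list transcripts that resemble them closely. *Gm5506*, a copy of *Eno1*, was listed at 829 RPKM (114177 reads) and 464 RPKM (59394 reads), and the aldolase copies *Aldoart1* and *Aldoart2* were listed at 57.2 and 80.5 RPKM in shLuc and 46.0 and 64.4 RPKM in shKdm5b. How reads that match several copies were counted is not given in the sources used here, and the same limit holds for *Gapdh*, which has many pseudogenes. Over the 9 genes of these steps the median log2 ratio was 0.21, and 0.69 after GC correction.

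At the fate of pyruvate, the lactate dehydrogenase subunits differed from each other. *Ldha*, whose subunit favours lactate production, was at 718 RPKM (91097 reads) in shLuc and 716 RPKM (84439 reads) in shKdm5b, a log2 ratio of -0.00 (-0.02 to 0.01). *Ldhb*, whose subunit favours the use of lactate, was at 95.1 RPKM (9592 reads) and 214 RPKM (20037 reads), the highest log2 ratio of the set at 1.17 (1.13 to 1.20). It was 1.60 after GC correction, again the highest. The summed lactate dehydrogenase level was 814 and 930 RPKM, and *Ldhb* made up 11.7% of it in shLuc and 23.0% in shKdm5b. *Pdk1*, a kinase that holds back the entry of pyruvate into the mitochondria, was called lower at 84.7 RPKM (34003 reads) and 49.9 RPKM (18617 reads). Its log2 ratio was -0.76 (-0.79 to -0.74), and -0.84 after GC correction, so that with *Pfkl* it was past 1.5-fold either way.

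None of the 3 genes of oxygen sensing was called. *Hif1a*, the oxygen regulated subunit of HIF, was at 41.8 RPKM (15566 reads) and 58.8 RPKM (20340 reads), a log2 ratio of 0.49 (0.46 to 0.52). Its transcript is the poorest in GC of the set (41.3%), and its ratio was 0.09 after GC correction. *Egln1*, the main prolyl hydroxylase that marks HIF1A, was at 21.6 and 27.2 RPKM, with ratios of 0.33 as deposited and 0.97 after correction. *Egln3*, a hydroxylase that is itself a HIF target, was at 61.6 and 56.1 RPKM, a ratio of -0.13 that was 0.18 after correction. RNA levels do not measure HIF1A activity, which is set mainly by the stability of the protein.

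Hypoxia response genes were higher or within 1.5-fold, and none was called lower. 4 of the 8 above the minimum were called higher and the median log2 ratio of the 8 was 0.68. After GC correction the median was 0.62 over 7 of them, and 4 were called higher (*P4ha1*, *Ndrg1*, *P4ha2* and *Ddit4*), of which *P4ha1* was also called as deposited. Over all genes 16.3% were called higher as deposited and 19.0% after correction. *P4ha1*, a collagen prolyl hydroxylase subunit, was at 15.7 RPKM (4965 reads) in shLuc and 33.0 RPKM (9697 reads) in shKdm5b, a log2 ratio of 1.07 (1.02 to 1.12) and 0.94 after correction. *Vegfa*, the growth factor of blood vessels, was at 5.89 RPKM (1275 reads) and 12.1 RPKM (2442 reads), a log2 ratio of 1.03 (0.94 to 1.14). Its 6 RefSeq entries, which are not separate measurements either, ranged from 0.85 to 1.07, and no GC value was found for it. *Bnip3*, a mitochondrial protein that promotes mitophagy, was at 70.4 RPKM (9659 reads) and 135 RPKM (17266 reads), a log2 ratio of 0.94 (0.91 to 0.98). *Ero1l*, an oxidase of protein folding in the endoplasmic reticulum, was at 28.8 RPKM (7071 reads) and 51.5 RPKM (11748 reads), a log2 ratio of 0.83 (0.79 to 0.88). The transcripts of *Bnip3* and *Ero1l* have a GC content of 41.6%, and their corrected ratios of 0.55 and 0.45 fell inside 1.5-fold.

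The other hypoxia genes were not called. *Ndrg1*, a stress responsive gene, was at 13.6 and 19.5 RPKM, a log2 ratio of 0.52 (0.45 to 0.59) and 0.90 after GC correction. *P4ha2*, the other collagen prolyl hydroxylase subunit measured, was at 8.25 and 9.49 RPKM with ratios of 0.20 and 0.72. *Ddit4* (REDD1), an inhibitor of mTOR signalling, was at 155 and 142 RPKM with ratios of -0.13 and 0.62. *Ankrd37*, a HIF target, was at 13.0 and 12.4 RPKM on 920 and 815 reads, and its interval of -0.21 to 0.07 includes 0. *Car9*, a carbonic anhydrase often used as a marker of hypoxic tissue, was near the lower end of detection with 45 reads (0.294 RPKM) and 36 reads (0.253 RPKM), and its interval of -0.89 to 0.45 allows a difference in either direction. The 12 oxygen sensing and hypoxia response genes together took 0.107% of all reads in shLuc and 0.142% in shKdm5b. The 17 genes of the hexose and triose phosphate steps took 0.772% (603172 reads) and 0.706% (513181 reads), of which *Pkm2* alone took 183832 and 98164 reads. Here too, the share without *Pkm2* was higher in shKdm5b. The 16 of these 17 genes above the minimum had a median log2 ratio of -0.02, with 3 called higher and 4 lower. After GC correction the median was 0.43, with 7 higher and 1 lower. The shares over all genes were 16.3% higher and 32.0% lower as deposited, and 19.0% and 17.8% after correction.

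Because both genes of a pair were read from the same libraries, the balance between isozymes does not depend on how the libraries were scaled. The odds of a read falling on the first gene of a pair against the second were compared between shKdm5b and shLuc for 11 pairs, as a log2 odds ratio with an exact conditional counting interval. 7 of the 11 passed 1.5-fold. The share among pairs of other genes was not computed, and 48.3% of all single genes above the minimum passed 1.5-fold. Both phosphofructokinase pairs share *Pfkp*, so they are not separate observations. The log2 odds ratio of *Pfkl* to *Pfkp* was -1.57 (-1.62 to -1.52) and that of *Pfkm* to *Pfkp* -1.03 (-1.12 to -0.94), so reads shifted toward the platelet type subunit. That of *Ldhb* to *Ldha* was 1.17 (1.13 to 1.21), a shift toward the *Ldhb* subunit. *Slc16a3* to *Slc16a1* gave -1.34 (-1.39 to -1.29), *P4ha2* to *P4ha1* -0.87 (-0.98 to -0.75) and *Hk2* to *Hk1* -0.63 (-0.73 to -0.54). *Pfkfb4* to *Pfkfb3* gave -2.33 (-2.82 to -1.86) on few *Pfkfb4* reads.

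The remaining pairs lay within 1.5-fold, with *Aldoc* to *Aldoa* at 0.42, *Egln3* to *Egln1* at -0.47, *Slc2a3* to *Slc2a1* at -0.42, and *Eno2* to *Eno1* at -0.05 with an interval of -0.26 to 0.16. After GC correction the phosphofructokinase balances were -0.98 and -0.63, the hexokinase balance -0.94 and the lactate dehydrogenase balance 1.25, all still past 1.5-fold. The balances of *Slc16a3* to *Slc16a1* and *P4ha2* to *P4ha1* were both -0.22 after correction, inside the limit. Those of *Slc2a3* to *Slc2a1* (-0.78) and *Egln3* to *Egln1* (-0.79) then passed it. No pair changed sign with this correction.

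**Figure D5:**
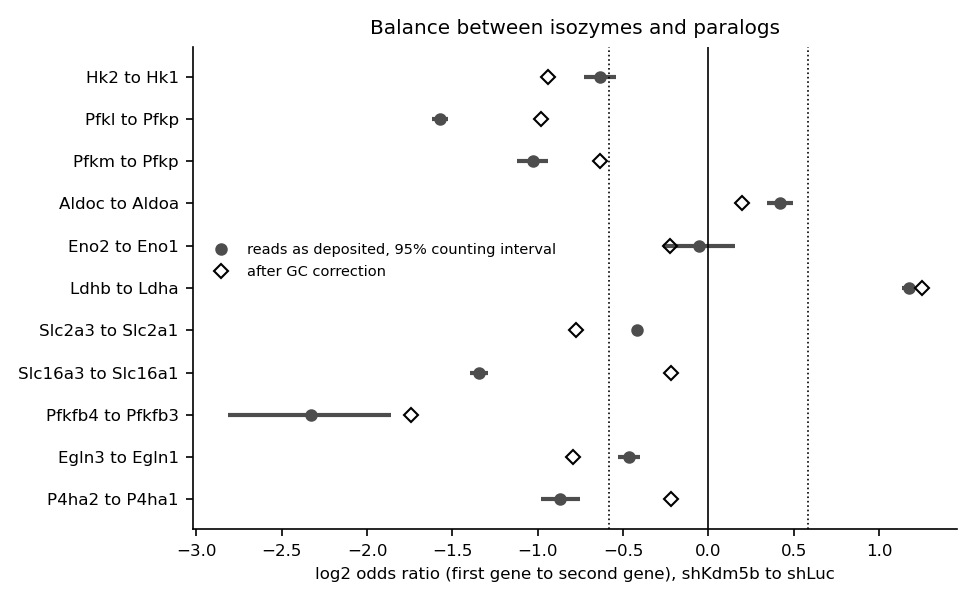
Log2 odds ratio of reads on the first against the second gene of 11 isozyme or paralog pairs, shKdm5b to shLuc (horizontal), from the deposited reads with 95% counting intervals (circles) and after GC correction (open diamonds), with dotted lines at 1.5-fold. *Ldhb* to *Ldha* is the pair far to the right, and *Pfkl* to *Pfkp* lies left of the dotted line in both forms, while *Slc16a3* to *Slc16a1* lies left of it only before correction.

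Neighbouring pathways were described from lists of their other genes, to be read against the shares over all genes given above. These were 16.3% higher and 32.0% lower as deposited, and 19.0% and 17.8% after GC correction. Of 28 other genes of glycolysis and gluconeogenesis, 15 passed the minimum, with 0 called higher and 5 lower and a median log2 ratio of -0.23 (1 higher, 2 lower and -0.12 after GC correction). The lowest were *Ldhd* (D-lactate dehydrogenase, 1.34 and 0.291 RPKM, log2 ratio -1.88), *Gpd1* (glycerol phosphate dehydrogenase, -1.63) and *Slc2a8* (a glucose transporter, -1.60), with corrected ratios of -1.31, -1.05 and -0.71. The pentose phosphate pathway, which branches off at glucose phosphate, had 1 of 8 higher and 3 lower with a median of -0.42, and 1 higher and 0 lower with a median of 0.01 after GC correction. Its *Pgls* and *Pgd*, enzymes of the oxidative branch, had ratios of -1.33 and -0.98, and *Rpe* of the other branch 0.96, but all 3 were within 1.5-fold after correction, at -0.30, -0.46 and 0.42. Pyruvate dehydrogenase and its regulators had 4 of 13 higher and 2 lower, with a median of 0.48 (4 higher, 3 lower and 0.33 after correction). *Brp44*, a subunit of the mitochondrial pyruvate carrier, was at 1.35 RPKM (90 reads) and 7.15 RPKM (444 reads), a log2 ratio of 2.32 (2.08 to 2.75), and 2.76 after GC correction. *Pdp2*, a phosphatase that activates pyruvate dehydrogenase, was at -1.83, and *Pcx*, pyruvate carboxylase, at -1.63, with corrected ratios of -1.80 and -0.91. The citric acid cycle had 2 of 16 higher and 3 lower with a median of -0.15, among them *Sucla2* at 0.83, *Sdhd* at 0.70 and *Ogdh* at -0.66. After GC correction 1 was higher and 0 lower with a median of 0.14, and the named genes were at 0.53, 0.86 and -0.26.

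Among 16 other regulators of the HIF pathway, 2 were higher and 4 lower, with a median of 0.03 (4 higher, 3 lower and 0.21 after GC correction). The prolyl hydroxylase *Egln2* was at 15.6 RPKM (2576 reads) and 3.69 RPKM (565 reads), a log2 ratio of -2.05, and -1.13 after GC correction. *Hif1an*, the asparagine hydroxylase that blocks HIF activity, was at 13.8 RPKM (6692 reads) and 4.60 RPKM (2068 reads), a log2 ratio of -1.57, and -1.25 after correction. *Tceb1*, elongin C of the complex that ubiquitinates HIF1A, was at 1.44, and 0.86 after correction. *Egln2* and *Hif1an* were thus called lower and *Tceb1* higher, and these genes are named for the size of their change. Calls lower made up 25% of the 16 regulators and 32.0% of all genes. *Egln1* and *Egln3* were within 1.5-fold as deposited, and after GC correction *Egln1* was called higher (0.97) and *Egln3* was not called (0.18). What these levels mean for HIF activity was not tested. Of 39 other hypoxia response genes, 30 passed the minimum, 9 were called higher and 4 lower, and the median was 0.21 (12 higher, 4 lower and 0.35 after GC correction). The largest ratios were those of *Higd1a*, a mitochondrial protein induced by hypoxia, at 10.2 RPKM (1489 reads) and 39.0 RPKM (5313 reads) and a log2 ratio of 1.93, *Adm* (the peptide adrenomedullin) at 1.74 and *Gbe1* (glycogen branching enzyme) at 1.72. All 3 stayed past 1.5-fold after GC correction, between 1.55 and 2.25.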

How the data were processed

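RNA-Seq of polyadenylated RNA from shLuc and shKdm5b ES cells at 72 h without LIF was analysed, with 1 library per condition, so no differential test was fitted. Per the labels, the submitters' processing notes name CASAVA 1.0, Bowtie 0.12.7 and mm8. The counting program, the treatment of reads with several matches and the use of strand are not given in the sources used here. The authors deposited, for 27405 RefSeq entries, a read count, a transcript length and an RPKM, and the aligned 50-base reads of each library, whose number and positions were counted. The RPKM is the count normalized by the authors to the length and to the number of those reads. A further column of small whole numbers, not explained in the sources used here, was left out.

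Where a symbol had several entries (3547 symbols, 8 of the 36 genes), the entry of highest mean RPKM stood for it. Log2 ratios used a pseudocount of 0.1 RPKM, and calls a ratio above 1.5-fold with RPKM above 1 in at least 1 library. At these depths 3 reads on 1 kb are 0.0384 RPKM (shLuc) and 0.0413 RPKM (shKdm5b). Counting intervals (95%) are exact Clopper-Pearson intervals of the reads in both libraries, without the pseudocount. Odds ratios are exact conditional ones. GC content came from GENCODE M21 transcripts matched by RefSeq accession, for 97.7% of genes above the minimum, and the curve is a lowess fit (fraction 0.3). Reference coordinates are GRCm38.p6 and describe the promoters printed, not the alignment.

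All 36 genes are named. Of each list of neighbouring genes, up to 3 called genes with the largest change are named. Promoters shown are those of the 6 called genes with the largest ratios, with 2 others. The members and lists were chosen with earlier results of these data known. Other pseudocounts, thresholds, scalings, GC corrections and sums of entries were tried. The steps were also run on simulated reads that carried counting error only. Those reads had no copies of molecules and no spread between replicates, so the run cannot show how the intervals behave under such error. Python 3.11.15, pandas 2.3.3, NumPy 2.4.6, SciPy 1.17.1, statsmodels 0.14.6, matplotlib 3.10.9, R 4.3.3, edgeR 4.0.16 (TMM) and DESeq2 1.42.0 (median of ratios) were used.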

Additional observations from a re-analysis of the deposited data

How the results depend on the processing

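The number of genes called was 14 as deposited and stayed within 1.5 times of that, between 13 and 16, with pseudocounts of 1 and 0.01 RPKM, both scalings, GC correction, the sum of entries, no minimum, a minimum of 11 RPKM, or a counting interval wholly beyond 1.5-fold. With a fold change above 2, 6 were called, 3 higher (*Ldhb*, *Vegfa* and *P4ha1*) and 3 lower (*Pfkl*, *Pfkm* and *Slc16a3*). At that limit 6.27% of all genes were higher and 16.5% lower. Correction for GC content, and for GC content and length, each gave 13 higher and 2 lower, against 8 and 6 as deposited. Under both scalings 12 were higher and 4 lower. The median over the genes past the minimum was a log2 ratio of 0.22 with TMM scaling, 0.24 with median-of-ratios scaling, 0.45 with GC correction and 0.46 with GC and length correction, against 0.00052. The scalings take the same shift out of every gene (-0.22 and -0.24), and why ratios followed GC content was not tested. The sign changed for 9 genes under each scaling and for 10 of 35 under GC correction, all of them genes within 1.5-fold or under the minimum. 7 of 11 isozyme pairs passed 1.5-fold under each setting run, but 2 of these were other pairs after GC correction. With 1 library per condition, no library could be left out, the error between replicates is unknown, and counting error is wide where reads are few, as for *Car9* and *Pfkfb4*. No paired analysis was possible because shLuc and shKdm5b had 1 library each.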
